A study of Mus musculus with 2 samples.

Results

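The genes described here are 7 outputs of the circadian clock: Dbp, Tef and Hlf, which form the PAR-bZIP family of transcription factors, Nfil3, Usp2, Bhlhe40 and Bhlhe41. They were taken by gene name from the arrays' own probe annotation, which gave 9 of 39429 gene probes. The arrays measured liver RNA of male C57BL/6J mice on 1-colour Agilent mouse arrays, with 1 array of wild type liver and 1 array of Drp1 knockout liver. Drp1, encoded by Dnm1l, is the GTPase that divides mitochondria. The mice had been given a lard-based diet with 24% fat (45% of its energy) for 24 weeks from the age of 4 weeks. The series title places the disruption in the liver, but the labels do not name the allele, a Cre driver or the number of mice behind each array. The study's text describes a mid-morning collection after an overnight fast and an early-afternoon collection after refeeding, and the labels of these arrays do not say which was used for either array. Time of day and feeding state therefore cannot be told apart from genotype in anything that follows.

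In liver, the clock is a feedback loop in which the activators Clock and Arntl (also called Bmal1) switch on genes through E-boxes in their DNA, among them the Per and Cry repressors and the nuclear receptors Nr1d1 and Nr1d2. Dbp, Tef and Hlf lie downstream of this loop. Their proteins bind D-boxes and drive daily rhythms of detoxification and lipid genes, whereas Nfil3 (E4BP4) occupies the same sites as a repressor and peaks at the opposite time of day. Usp2 is a ubiquitin-specific protease with a strong daily rhythm in liver, and Bhlhe40 and Bhlhe41 (Dec1 and Dec2) are E-box repressors that feed back on Clock and Arntl.

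Each level is a multiple of the signal at the 75th percentile of that array's gene spots, and differences are log2 values, knockout minus wild type. With 1 array per group there was no replicate check and no test, so no difference has a p-value. The spread between repeated spots of a probe amounted to 0.14 log2 units (SD) for a difference between the arrays. The scanner program's own error for each member probe above background was about 0.20 log2 units per difference. Neither error covers variation between mice. The 75th percentile itself was 1.57 times as bright on the knockout array (722 against 461 signal units), so the scaling weighs on every difference. All 10 hepatocyte markers on the list were well above background on both arrays. The targeted gene, Dnm1l, differed by -0.21, but the deleted part is not given in the labels, so its probe does not check the genotype. Fgf21, the liver hormone of the series title, was 5.98-fold higher in the knockout.

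Of the 7 members, 6 were measured on both arrays, through 7 probes. Among these, 4 lay at least 1.5-fold lower in the knockout and 0 lay at least 1.5-fold higher. In the comparison over all 15385 measured genes, 13.4% were at least 1.5-fold lower and 8.42% at least 1.5-fold higher. The same 4 members, Dbp, Tef, Hlf and Usp2, were also at least 2-fold lower, against 3.64% of all genes at least 2-fold lower and 2.91% at least 2-fold higher. Tef lay at that limit and stayed past it in 3 of 8 other settings planned. Those were the changed filters and the brightest probe, which cannot alter the value of a gene with 1 probe. In the rest Tef fell short of 2-fold, between -0.99 and -0.73, so that 3 members were 2-fold lower. The median difference of the 6 members was -1.13, against -0.11 for all genes. Nfil3 lay on the other side of 0. Over all genes, 2060 were lower and 1296 higher at 1.5-fold, and these numbers became 1461 and 1507 after loess correction for brightness and 209 and 8892 with scaling to spike-in spots, a setting chosen after seeing the data. Spike-in scaling adds 0.78 to every difference. With it Dbp and Usp2 still lay at least 1.5-fold lower, Tef and Hlf lay between, and Bhlhe40 changed sign.

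**Figure D1:**
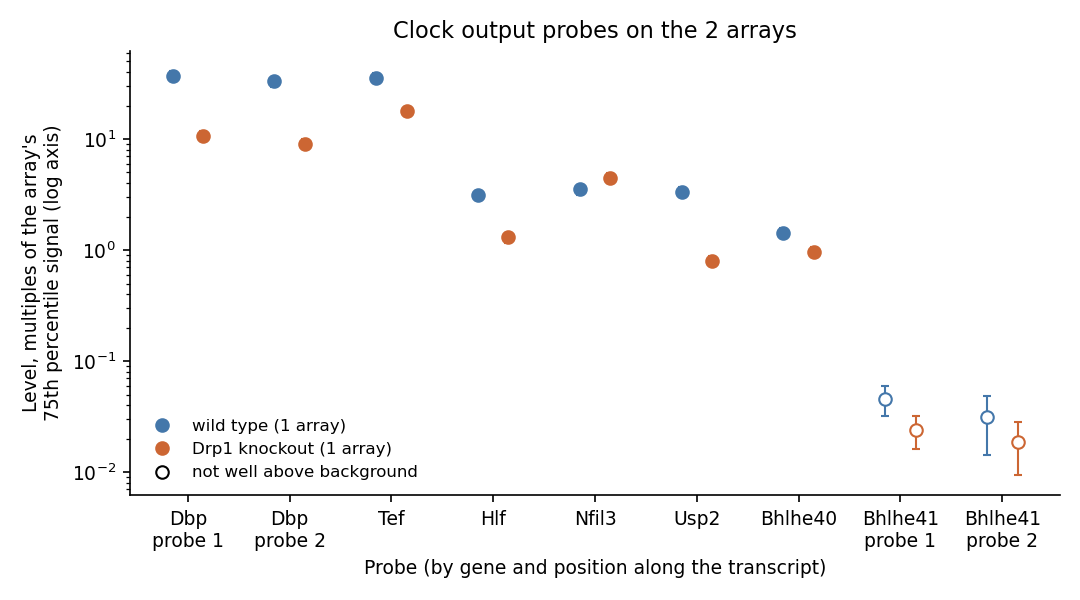
Level of each member probe on the wild type and the Drp1 knockout array, as multiples of the array's 75th percentile on a log axis, with bars for the scanner program's own signal error (smaller than the symbol for most probes). Each probe is to be read against itself: both Dbp probes, Tef, Hlf, Usp2 and Bhlhe40 are lower in the knockout, Nfil3 is higher, and the Bhlhe41 probes (open symbols) are not well above background.

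Dbp, the founding PAR-bZIP factor, was first described as binding the albumin promoter. It was covered by 2 probes, which lie on chromosome 7 (mm9) at 52965322 to 52965381 and 52965461 to 52965520, at positions 1426 and 1565 along the transcript in the design's own numbering. The first read 37.3 times the 75th percentile in the wild type and 10.7 in the knockout, a difference of -1.80. The second read 33.0 and 9.09, a difference of -1.86. Both probes were thus lower in the knockout by nearly the same amount, and they do not overlap in the genome, although they report on the same RNA. Averaged, Dbp was 3.55-fold lower. Only 98 of the measured genes, or 0.637%, had a more negative difference.

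Tef, thyrotroph embryonic factor, cycles with a lower amplitude in liver than Dbp. Its probe on chromosome 15 (81657221 to 81657280, mm9) is assigned to 2 RefSeq transcripts and does not separate them. It read 35.6 in the wild type and 17.8 in the knockout. Tef was 2.00-fold lower (-1.003), with 3.59% of measured genes more negative. When genes were divided into 10 groups by brightness, Tef belonged to the brightest, whose median difference was -0.30 and of which 17.4% were at least 1.5-fold lower. Dbp belonged to the next group, where the median was -0.22. After quantile or loess normalization, or in the deposited value table, which remove such a trend, Tef lay between -0.74 and -0.73.

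Hlf, hepatic leukemia factor, was represented by 1 probe on chromosome 11 (90200696 to 90200755, mm9, minus strand). Its level was 3.13 in the wild type and 1.30 in the knockout. Hlf was 2.41-fold lower (-1.27), and 1.71% of measured genes had a more negative difference. Genes of its brightness group had a median of -0.06. All 3 PAR-bZIP factors were therefore lower in the knockout, in the order Dbp, Hlf, Tef by size. Under spike-in scaling all 3 stayed negative, but Hlf was at -0.49, short of 1.5-fold. Tef was then at -0.23, close to the program's error of a single difference. Hlf and Tef differed from each other by 0.26 log2 units, close to the program's error of a single difference, while Dbp was 1.77-fold further down than Tef.

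Nfil3, the bZIP repressor that shares its sites with the PAR-bZIP factors, did not share their direction. Its probe on chromosome 13 (53062578 to 53062637, mm9, minus strand) read 3.52 in the wild type and 4.47 in the knockout. That is 1.27-fold higher (0.34), short of 1.5-fold, and 16.2% of all genes were higher still. With spike-in scaling it was at 1.12, past 1.5-fold. Because array scaling cancels in a ratio between genes of one array, the balance of repressor to activators can be given without it. Relative to Dbp, Nfil3 was 4.51-fold higher in the knockout than in the wild type. The same ratio was 3.05-fold higher against Hlf and 2.54-fold higher against Tef.

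Usp2 was the member with the greatest difference. Its probe lies on chromosome 9 at 43903649 to 43903708 (mm9) and is assigned to 3 RefSeq transcripts, so the long and the short form of the protease are not told apart. The level was 3.33 in the wild type and 0.804 in the knockout, a difference of -2.05, or 4.14-fold. Before scaling, the signal was 1534 ± 154 (program error) against 580 ± 58.3. Only 69 genes had a more negative difference. The RefSeq-named genes closest to Usp2 in both difference and mean level were the predicted gene Gm3734 (-2.19), the small nucleolar RNA Snora47 (-2.20) and Onecut1 (-1.90), a liver transcription factor. With 2 arrays this likeness is a distance between pairs of values and not a shared profile.

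Bhlhe40, a repressor induced by many signals including hypoxia, had 1 probe on chromosome 6 (108616309 to 108616368, mm9). It read 1.43 in the wild type and 0.970 in the knockout, a difference of -0.56 just short of 1.5-fold (0.58), and 14.4% of genes were more negative. Scaled to the spike-in spots Bhlhe40 was at 0.22, so its direction rests on the scaling. Relative to Usp2 it was 2.82-fold higher in the knockout. Bhlhe41 had 2 probes on chromosome 6 (145811275 to 145811334 and 145812652 to 145812711, mm9, minus strand). Neither was well above background on either array. Their levels were 0.0314 and 0.0457 in the wild type and 0.0188 and 0.0240 in the knockout, and no fold is given for Bhlhe41.

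Because RNA from whole liver was measured, fewer cells of a type and less RNA per cell cannot be told apart for any of these genes. In 3 of the 9 probes stands the hexamer AATAAA, the usual signal for cleavage and polyadenylation near the end of a transcript. A probe there reads every form of the RNA that shares this end. The 30 bases around the hexamer are shown for these probes, with the hexamer in capitals.

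Dbp, probe at position 1565: caacacaatcctgAATAAAtcttgagaacc
Usp2, probe at position 3805: agccttgtacagAATAAAtagtagctttga
Nfil3, probe at position 1932: gttgccagtttcAATAAAggattggtggca

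**Figure D2:**
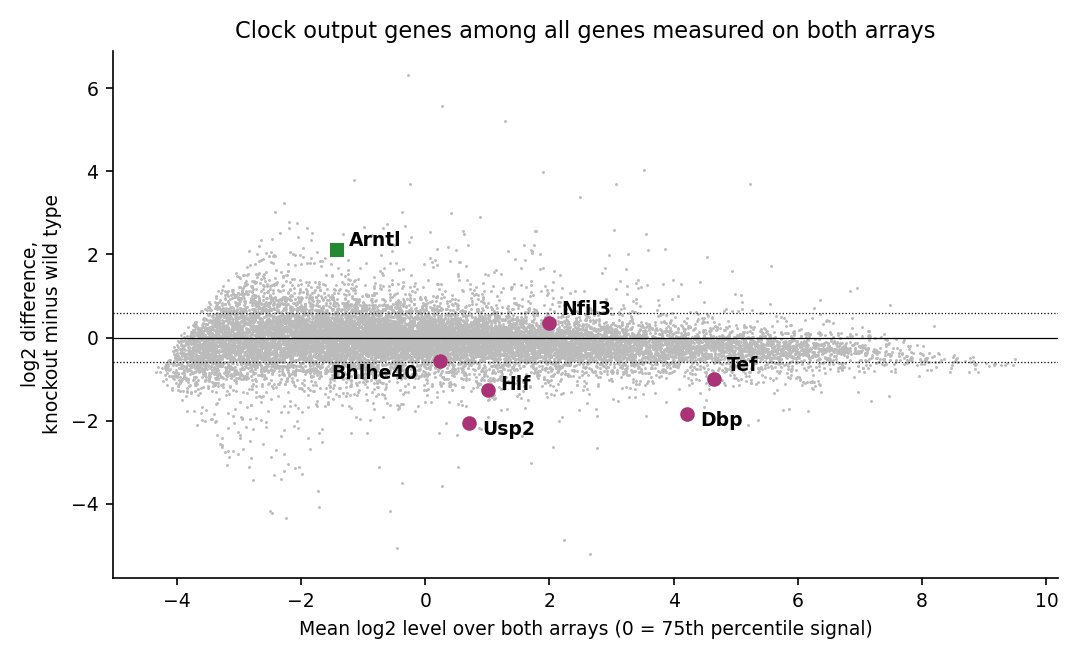
Difference (knockout minus wild type, log2) against the mean log2 level over both arrays for the 15385 measured genes (grey), with the 6 measured members as circles and Arntl as a square; dotted lines mark 1.5-fold. Usp2, Dbp, Hlf and Tef lie below the lower dotted line, Bhlhe40 just above it, and Nfil3 between 0 and the upper one.

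The start regions of Dbp, Tef, Hlf and Usp2, which were lower together, and of Nfil3 are shown next, since E-boxes and D-boxes are the elements through which the clock acts on such genes. They are the 250 bases before a RefSeq transcription start in GRCm38.p6, written 5′ to 3′ along the gene, and 6 of the 7 members had an entry. They were searched on both strands for the E-box CACGTG, which is its own reverse complement, the D-box TTACGTAA or TTATGTAA, the core of the ROR element AGGTCA, the cAMP response element TGACGTCA and the amino acid response element TGATGCAA. Of all 32851 such windows in the table, 6.02% held the E-box, 0.931% the D-box, 14.0% the ROR core, 1.55% the cAMP response element and 0.791% the amino acid response element. Matches are in capitals, and no match overlapped another.

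Dbp, chr7:45704997-45705246, plus strand: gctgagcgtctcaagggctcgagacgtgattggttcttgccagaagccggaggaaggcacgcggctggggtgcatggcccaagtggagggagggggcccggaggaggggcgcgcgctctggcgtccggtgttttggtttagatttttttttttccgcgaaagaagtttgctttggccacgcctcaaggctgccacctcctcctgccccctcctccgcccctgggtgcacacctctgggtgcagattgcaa
Tef, upstream start, chr15:81802423-81802672, plus strand: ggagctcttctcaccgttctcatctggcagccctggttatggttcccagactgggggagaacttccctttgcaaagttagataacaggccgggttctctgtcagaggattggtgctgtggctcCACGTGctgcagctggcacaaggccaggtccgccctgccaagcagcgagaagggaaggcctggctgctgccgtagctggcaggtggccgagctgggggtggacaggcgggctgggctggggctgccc
Tef, downstream start, chr15:81811164-81811413, plus strand: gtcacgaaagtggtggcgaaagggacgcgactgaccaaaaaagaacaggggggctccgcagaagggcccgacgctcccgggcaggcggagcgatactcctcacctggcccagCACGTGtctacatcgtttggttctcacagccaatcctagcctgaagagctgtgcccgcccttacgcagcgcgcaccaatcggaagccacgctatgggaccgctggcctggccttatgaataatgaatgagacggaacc
Hlf, chr11:90390918-90391167, minus strand: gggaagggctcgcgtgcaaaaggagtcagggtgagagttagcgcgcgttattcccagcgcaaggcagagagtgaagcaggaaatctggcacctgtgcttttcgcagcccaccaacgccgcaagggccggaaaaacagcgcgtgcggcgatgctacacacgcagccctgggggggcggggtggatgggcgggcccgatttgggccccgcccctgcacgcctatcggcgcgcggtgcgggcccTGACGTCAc
Usp2, chr9:44084670-44084919, plus strand: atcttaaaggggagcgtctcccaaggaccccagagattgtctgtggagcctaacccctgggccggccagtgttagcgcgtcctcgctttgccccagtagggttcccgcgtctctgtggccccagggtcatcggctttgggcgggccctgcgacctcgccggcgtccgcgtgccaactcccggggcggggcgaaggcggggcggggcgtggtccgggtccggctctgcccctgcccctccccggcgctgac
Nfil3, chr13:52981040-52981289, minus strand: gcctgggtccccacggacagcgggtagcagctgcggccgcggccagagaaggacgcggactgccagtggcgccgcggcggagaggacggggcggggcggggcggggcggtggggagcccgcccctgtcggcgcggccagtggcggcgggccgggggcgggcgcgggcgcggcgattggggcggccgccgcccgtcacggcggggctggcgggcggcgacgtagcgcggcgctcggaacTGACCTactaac

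Both starts of Tef had an E-box, beginning 127 bases before the upstream start and 138 bases before the downstream start. The window of Hlf held the cAMP response element, beginning 9 bases before the start, and that of Nfil3 the ROR core in reverse (TGACCT), beginning 12 bases before it. The windows of Dbp and Usp2 held none of these letters. Bhlhe41 had an E-box beginning 153 bases before its start. No window held a D-box. Bhlhe40 had no window. The lack of a match in 250 bases says nothing of elements elsewhere in these genes. Whether any match bears on the differences was not tested.

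The core clock was compared next, as the machinery that drives the members. Of 17 genes listed, 13 were measured on both arrays, 1 of them at least 1.5-fold lower and 3 at least 1.5-fold higher, with a median of -0.06. Among all measured genes 13.4% were lower and 8.42% higher, with a median of -0.11. Arntl, the activator that pairs with Clock, was 4.31-fold higher in the knockout, at 0.772 against 0.179. Relative to Dbp it was 15.3-fold higher. With normexp background correction these values were 2.80-fold and 9.33-fold, and Arntl did not pass the stricter filter on dim probes. Clock itself was at -0.06. Rora, a nuclear receptor that activates Arntl, was 1.51-fold higher by 1 of its 2 probes (-0.58 for the gene without the filter on dim probes). The kinase Csnk1e was 1.51-fold higher by 2 of its 3 probes, but at -0.01 without that filter. The number of core clock genes at least 1.5-fold higher was 1 without the filter and 1 with normexp, against 10.5% and 4.28% of all genes. Fbxl21, a ubiquitin ligase subunit for Cry proteins, was 4.57-fold lower, again by 1 of 2 probes, and 1.97-fold lower without the filter. Npas2, the paralogue of Clock, and Cry1 were not well above background on either array.

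Other E-box driven genes lay nearer to 0 than Dbp. The repressors Per1 and Per2 were at -0.20 and -0.55, Cry2 at -0.28, and the nuclear receptors Nr1d1 and Nr1d2 at -0.28 and -0.22. All 5 had the negative sign of Dbp under the 75th percentile scaling, as did 60.1% of all genes, whose median was -0.11. Spike-in scaling adds 0.78 to every difference, so all 5 turned positive with it. Per1 rested on 1 of its 2 probes and was at -0.008 without the filter on dim probes. Relative to Dbp, Nr1d1 was 2.92-fold and Per1 3.10-fold higher in the knockout. Per3 passed background only in the knockout, and Ciart (Chrono, another E-box repressor) only in the wild type. In the list of 12 E-box driven outputs, 10 were measured, with a median of -0.25. Of these, 2 were at least 1.5-fold lower (Tspan4 2.13-fold and the cell cycle kinase Wee1 1.92-fold) and 1 higher (Lonrf3 2.24-fold). The shares over all genes were 13.4% and 8.42%. The measured outputs include Per1, Per2, Cry2, Nr1d1 and Nr1d2, which were also counted in the core clock. With spike-in scaling 0 of the outputs were lower and 3 higher, against 1.36% and 57.8% of all genes. Of 4 genes listed as driven through ROR elements, Arntl and Clock were measured, and Arntl alone passed 1.5-fold.

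**Figure D3:**
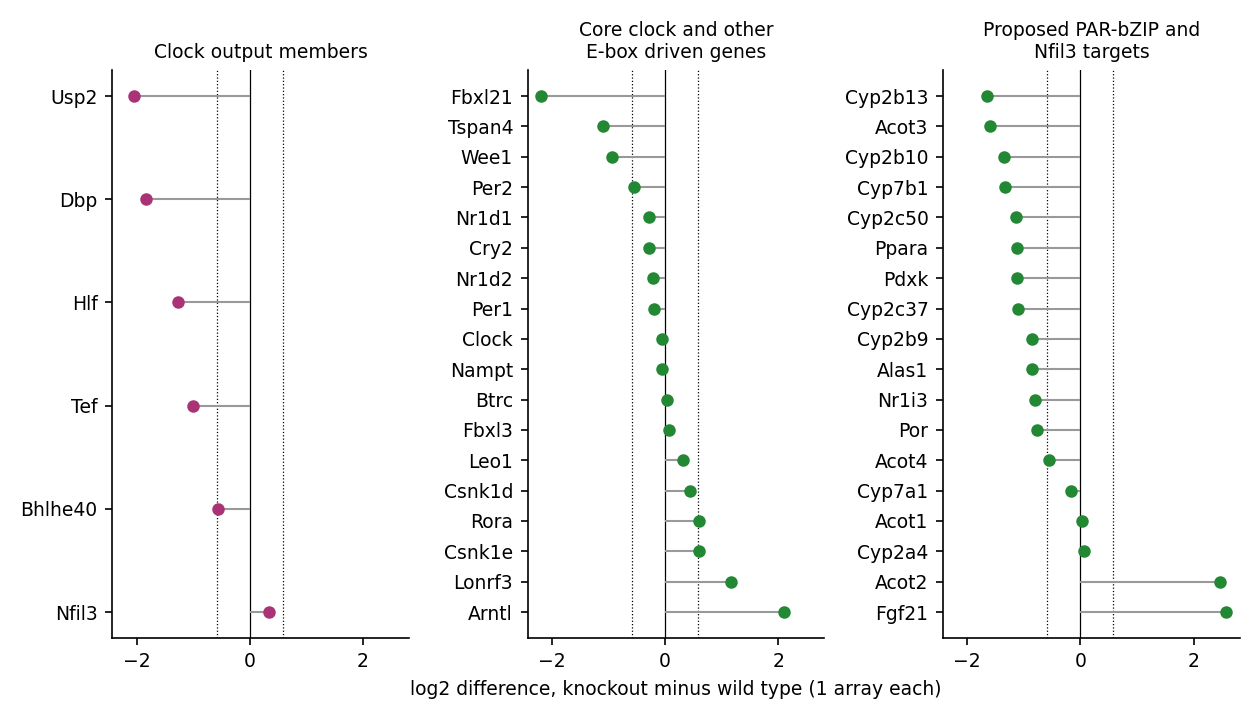
Log2 differences (knockout minus wild type, 1 array each) of the 6 measured members, of measured core clock and other E-box driven genes, and of proposed targets of the PAR-bZIP factors and Nfil3; dotted lines mark 1.5-fold. Of the members 4 of 6, and of the proposed targets 12 of 18, lie past 1.5-fold on the negative side, against 13.4% of all genes. Arntl is at 2.11 on the positive side.

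Genes proposed as targets of the PAR-bZIP factors or of Nfil3 in liver were mostly lower. Of 19 listed, 18 were measured, 12 of them at least 1.5-fold lower and 2 higher, with a median of -0.86. Over all genes, 13.4% were lower, 8.42% higher and the median was -0.11. Hepatocyte markers had a median of -0.57, with 4 of 10 lower. After quantile or loess normalization 10 of the proposed targets were lower and 2 higher, with medians of -0.71 and -0.70. With spike-in scaling 2 were lower and 5 higher, against 1.36% and 57.8% of all genes. Alas1, the first enzyme of haem synthesis, was 1.81-fold lower, at 26.4 against 47.8. Por, the electron donor of the cytochromes P450, was 1.70-fold lower and the xenobiotic receptor Nr1i3 (CAR) 1.75-fold lower. After quantile normalization Alas1 and Por fell short of 1.5-fold, at -0.55 and -0.49. With spike-in scaling these 3 lay near 0, Alas1 at -0.08, Nr1i3 at -0.03 and Por at 0.01.

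Among the cytochromes P450, Cyp2b10 was 2.55-fold lower, Cyp2b13 3.15-fold, Cyp2c50 2.19-fold and Cyp7b1, of oxysterol and bile acid metabolism, 2.53-fold. Cyp7a1, the rate-limiting enzyme of bile acid synthesis and a long-known Dbp target, was at -0.17. Ppara, the fatty acid sensing nuclear receptor, was 2.18-fold lower by the mean of its 3 probes, which lay between -1.22 and -1.06. The acyl-CoA thioesterases went both ways, with Acot3 3.04-fold lower, Acot1 at 0.03 and Acot2 5.53-fold higher. Fgf21, described as repressed by Nfil3, was the other gene on the list that was higher. Nfil3 was at 0.34, and whether it bears on the level of Fgf21 was not tested. The Cyp2b, Cyp2c and Acot genes are families of closely similar transcripts, so values of single members are uncertain.

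Genes that mark feeding state also differed between the arrays. Of 10 measured feeding-induced genes, 6 were at least 1.5-fold lower in the knockout and 0 higher, with a median of -0.71. Over all genes, 13.4% were lower and 8.42% higher. Thrsp was 3.99-fold and Srebf1 3.14-fold lower. After quantile normalization 4 were lower and 0 higher, and with spike-in scaling 2 were lower and 1 higher, with a median of 0.07. Of 16 fasting-induced genes, 4 were at least 1.5-fold higher and 0 lower, with a median of 0.18. These were Igfbp1 (12.8-fold), Fgf21, Pdk4 (2.37-fold) and Tat (2.06-fold), while the gluconeogenic enzymes Pck1 and G6pc were at 0.46 and 0.23. The number of fasting-induced genes at least 1.5-fold higher was 7 after quantile normalization and 12 with spike-in scaling. Of all genes, 8.50% were higher after quantile normalization and 57.8% with spike-in scaling. Whether feeding state or hour of collection had a part in the differences of the clock outputs was not tested.

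Glucocorticoids can reset the liver clock, in part through Per1. Of 12 glucocorticoid-induced genes, 4 were at least 1.5-fold higher (Sgk1 2.82-fold, Tat, Cebpd 1.82-fold and Tsc22d3 1.78-fold) and 1 lower (Obp2a, listed as Lcn13, 8.77-fold, or 4.36-fold with normexp), with a median of 0.21, and Fkbp5 was at -0.29. Of all genes, 8.42% were higher and 13.4% lower. With spike-in scaling 10 glucocorticoid-induced genes were higher and 1 lower, against 57.8% and 1.36% of all genes. Hypoxia induces Bhlhe40. Of 10 measured hypoxia-induced genes, 2 were higher (Ndrg1 2.45-fold and Adm 1.80-fold) and 1 lower (Ankrd37 1.97-fold), with a median of -0.27 and Vegfa at -0.30. The shares over all genes were the same 8.42% and 13.4%. Adm was at 0.25 with normexp, short of 1.5-fold, and did not pass the stricter filter. With spike-in scaling 4 hypoxia-induced genes were higher and 0 lower, against the same 57.8% and 1.36% of all genes.

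Markers of several cell types differed too, which does not separate the number of cells from the RNA per cell. Skeletal muscle markers summed to 11.1 in the wild type and 0.486 in the knockout, each gene taken at the mean level of all its probes, with 10 of 12 detected above background in the wild type and 2 in the knockout. Clock outputs are also transcribed in muscle and other tissues. Hepatocyte markers had a median of -0.57, with 4 of 10 at least 1.5-fold lower, 1 higher and summed levels of 3809 and 2558; after quantile normalization 0 were lower and the median was -0.02. Stellate cell markers were at least 1.5-fold higher in 8 of 10 cases, with summed levels of 48.7 in the wild type and 72.5 in the knockout. Macrophage markers summed to 90.3 and 110, with 3 of 10 higher and 0 lower, and biliary markers to 0.539 and 1.11, with 2 of 3 measured higher. Endothelial markers summed to 43.3 and 38.2, of which Clec4g made up 31.0 and 28.3, while 2 of 6 measured were higher, 0 lower and the median was 0.08. Lymphocyte markers summed to 13.0 and 10.7, mostly through Cd4, with 1 of 5 measured higher, 1 lower and a median of 0.15. Neutrophil markers summed to 4.95 and 2.61, with 4 of 5 measured lower. Adipocyte markers summed to 6.76 and 2.64, with Cfd as the main contributor in the wild type and Adipoq, Plin1, Retn and Lep not well above background on either array. With spike-in scaling, hepatocyte markers had 0 lower, 2 higher and a median of 0.20, and neutrophil markers 1 lower and 1 higher. Higher were then 10 of 10 stellate, 10 of 10 macrophage and 5 of 6 measured endothelial markers, against 57.8% of all genes. Of the 2 measured skeletal muscle markers, 1 stayed lower, where 1.36% of all genes were lower. The part of these cell types in the members' differences was not tested.

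**Figure D4:**
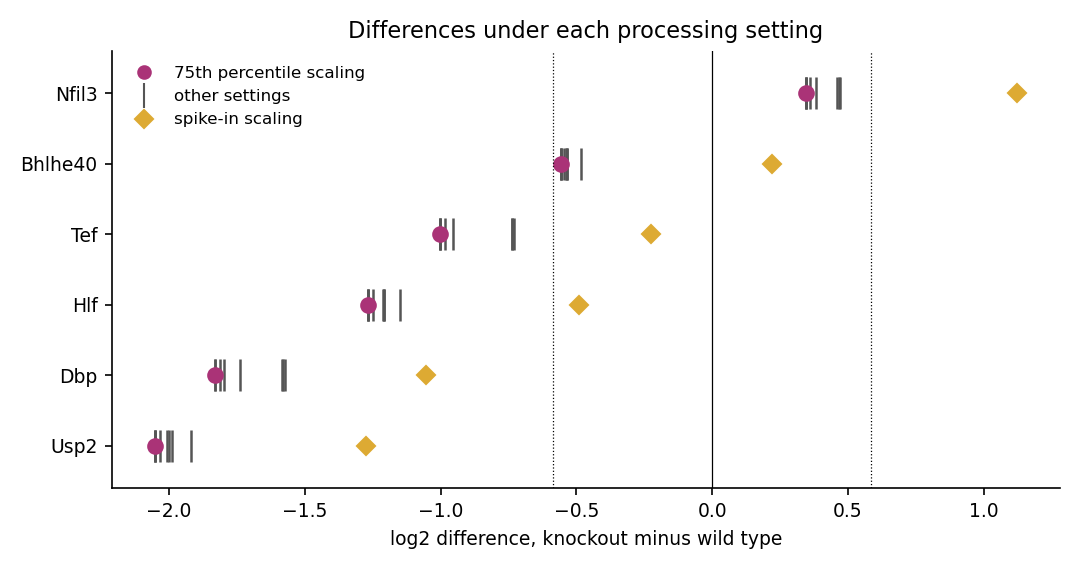
Log2 difference of each measured member under the 75th percentile scaling (circles), under 8 other settings (bars) and with scaling to spike-in spots (diamonds); dotted lines mark 1.5-fold. The order of the members from Usp2 to Nfil3 is the same in every setting drawn, while the distance from 0 depends on the scaling. Part of this was fixed in advance. Spike-in scaling and median centring shift all differences alike and cannot change the order. The changed filters and the brightest probe can alter Dbp at most.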

How the data were processed

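Liver RNA of 1 wild type and 1 Drp1 knockout sample was labelled with Cy3 and hybridised to Agilent mouse arrays, per the labels' protocols. The deposited values are spot intensities from Agilent Feature Extraction (version 10.7.1.1 per the file headers, 9.5.1.1 per the submitters' processing notes); the processed signal is background-subtracted and detrended, per the file headers. The deposited value table holds linear intensities whose sorted values differ between the arrays at only 221 ranks; its scale and direction follow from a Spearman correlation of 0.9999 or more with each array's scanner values, over 39429 probes.

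Control spots and outlier spots (183 and 190) were left out; 0 spots were saturated. Log2 signals were scaled to the array's 75th percentile, and a probe counted as measured where at least 50% of its spots were well above background. A gene is the mean of its probes measured on both arrays. Genes other than the members were named through RefSeq (GRCm38.p6), by accession for 26761 probes and by symbol or synonym for 4453; 8215 kept the file's name. Positions are in mm9, as deposited, and no exon annotation was used. Promoters come from RefSeq (GRCm38.p6).

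The members and the gene lists were chosen with earlier results of these data known. A few genes of the lists are not reported here and do not enter the lists' counts. Named are all members, the main clock genes, the title's genes, up to 5 genes at least 1.5-fold apart per list, and the 3 genes nearest to the member of greatest difference; further list genes were named after their values were seen. The counting of genes past a fold was checked on simulated arrays, which says nothing of the spread between mice. The number of arrays limits the precision. Alternatives were quantile, median and loess (span 0.3) normalization, normexp (offset 50, limma 3.58.1), no or a stricter filter (25th percentile), the brightest probe, the deposited table and, added after seeing the data, E1A spike-in scaling (8 probes).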

Additional observations from a re-analysis of the deposited data

How the results depend on the processing

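Under the 8 settings planned, the number of the 6 measured members at least 1.5-fold lower was 4 and the number higher was 0 throughout. Part of this sameness was fixed in advance. The changed filters and the brightest probe cannot alter the value of a member with 1 measured probe, and only Dbp had more. The deposited table, whose sorted values nearly coincide between the arrays, is close to quantile normalization. With spike-in scaling the numbers were 2 and 1. Dbp ranged from -1.83 to -1.57 over the planned settings, Usp2 from -2.05 to -1.92, Hlf from -1.27 to -1.15, Tef from -1.003 to -0.729, Bhlhe40 from -0.56 to -0.48 and Nfil3 from 0.34 to 0.47, all with the sign reported. With spike-in scaling the values were -1.05, -1.27, -0.49, -0.23, 0.22 and 1.12 in the same order. The number of all genes at least 1.5-fold lower and higher was 1465 and 658 with normexp, 1269 and 655 with the stricter filter, which tests fewer genes, and 11307 and 3164 with no filter, which tests more. The median of all genes moved by 0.11 under loess, by -0.20 without the filter and by 0.78 with spike-in scaling. Bhlhe41 could not be measured at this signal over background. No paired analysis was possible because each group has 1 array.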
